A study of Mus musculus with 6 samples.

Results

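Sequencing of mRNA of RAW 264.7 cells gave the level of 39 genes for splicing factors among the 24848 genes listed. They were selected by symbol, a choice made with earlier results of these data known. They comprised 19 heterogeneous nuclear ribonucleoprotein (hnRNP) genes, whose symbols start with Hnrnp, 11 SR protein genes (Srsf) and 9 genes of splicing factor 3. Of these 9, 3 belong to SF3A (Sf3a) and 6 to SF3B (Sf3b). Processed copies and 1 other hnRNP row were left out. RAW 264.7 is a macrophage-like line from a tumour that Abelson murine leukaemia virus induced in a male BALB/c mouse. The samples were 3 libraries of RAW 264.7 cells labelled as an APOBEC1 knockout (KO) and 3 of RAW 264.7 cells labelled wild type (WT), all grown without any stated stimulus and each from its own plate. APOBEC1 deaminates cytidine to uridine in RNA. The sources used here do not say how the knockout was made or how many clones it holds, so an effect of the genotype and one of the line cannot be told apart. Each p-value reflects variation among plates.

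HnRNPs coat nascent transcripts, often silence exons by binding introns or exonic silencers, and also act in mRNA export, translation and decay. SR proteins carry an RNA-binding domain and a tail rich in arginine and serine, bind exonic enhancers and recruit the spliceosome, and are switched by phosphorylation of that tail. SF3A and SF3B are parts of the U2 small nuclear ribonucleoprotein (snRNP), which recognises the branch point of an intron. Many hnRNP and SR protein genes limit their own mRNA through alternative exons that mark it for decay, which a level summed over a gene does not resolve.

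Gene reads numbered 59768682 to 70411383 per library in KO and 50493447 to 67392191 in WT. Levels are in CPM, read counts of a gene scaled so that every library has the same total. All 10 macrophage markers, among them Csf1r, Adgre1 and Cd68, reached at least 1 CPM in at least 3 libraries, and their summed level was 4420 to 4950 CPM in KO and 4122 to 4350 CPM in WT. The markers of fibroblasts (4 of 7 at 0 throughout, Col1a1 among them) and of epithelial cells (2 of 5 at 0) summed to at most 0.114 CPM in KO and 0.0856 CPM in WT. B cell markers (2 of 5 at 0) summed to at most 0.156 CPM in KO and at most 0.317 CPM in WT, endothelial markers (0 of 4 at 0) to 0.866 to 1.08 CPM in KO and 0.594 to 0.719 CPM in WT. Of the 6 T cell markers listed, 3 were at 0 and Lck alone passed 1 CPM, with sums of 6.59 to 7.55 CPM in KO and 3.62 to 4.81 CPM in WT. Apobec1 itself stood at 339, 340.1 and 361 CPM in the KO libraries and at 373, 431 and 396 CPM in the WT libraries, all KO values below all WT values. It was not called in limma (adjusted p = 0.0663) or edgeR (adjusted p = 0.0784) and was called lower in DESeq2 (adjusted p = 0.0327). Its mRNA was thus present in both groups, and its level does not check the labels. In RNA from whole cultures, fewer cells of a kind and less RNA per cell cannot be told apart.

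The splicing factor genes differed little between the genotypes. Of the 39, 38 had at least 1 CPM in at least 3 libraries and were tested with limma on log2(CPM + 0.5), with Benjamini-Hochberg adjustment over all 10614 genes that passed the same filter. Only 4 of the 38, or 10.5%, were called at an adjusted p under 0.05, 2 higher and 2 lower in KO, and all 4 were hnRNP genes. The share called over the whole table was 30.4%, with 13.5% higher and 16.9% lower, so the members' share lay below that background, a difference that was not tested. The median size of the log2 fold change, without regard to sign, was 0.11 over the 38 members and 0.18 over all tested genes. The median standard error was 0.09 for the hnRNP genes, 0.13 for the SR protein genes and 0.07 for the SF3 genes, against 0.09 for all tested genes, so the SR protein genes were measured less closely. For 30 of the 38 the 95% interval of the difference lay within 1.5-fold either way, as for 73.1% of all tested genes, and for 36 it lay within 2-fold. KO and WT libraries were fully separated for 7 members, 4 higher and 3 lower in KO, while 46.4% of all tested genes had groups without overlap, 20.9% higher and 25.4% lower.

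**Figure D1:**
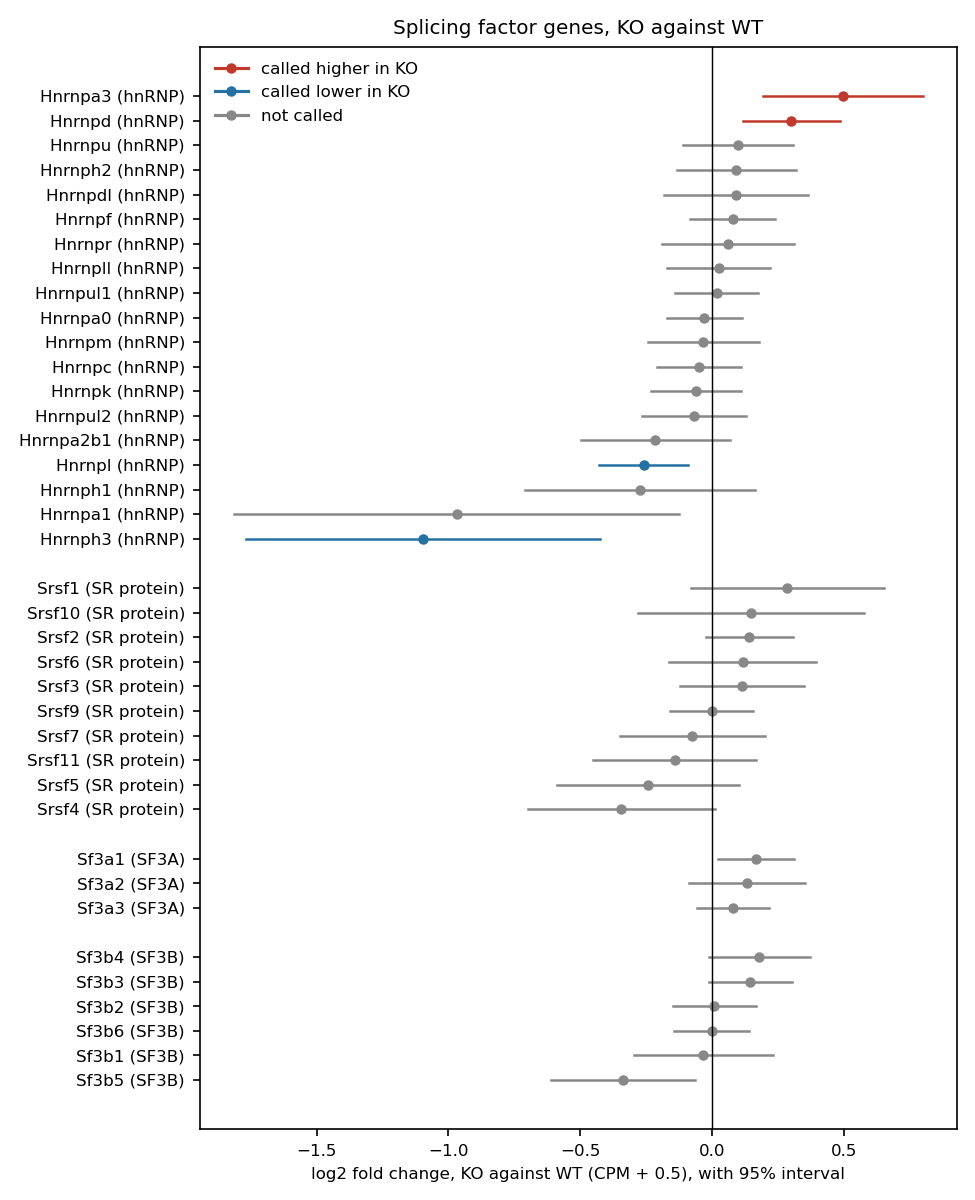
Log2 fold change of each tested splicing factor gene, KO against WT, on log2(CPM + 0.5), with its 95% interval from limma, grouped by family. The 4 coloured genes were called, Hnrnpa3 and Hnrnpd higher and Hnrnph3 and Hnrnpl lower in KO, and most other points lie within 0.3 of 0.

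The promoters of both genes that rose are rich in G and C. The 100 bases before the RefSeq start of each are shown because these are members whose level changed and because the window holds no annotated UTR. Promoters were matched for 35 of the 39 members in RefSeq's table, which uses GRCm38.p6, the assembly of mm10. Capitals mark the letters GGGCGG, the GC box, on either strand, with overlapping matches joined.

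Hnrnpa3, chr2:75659159-75659258, plus strand: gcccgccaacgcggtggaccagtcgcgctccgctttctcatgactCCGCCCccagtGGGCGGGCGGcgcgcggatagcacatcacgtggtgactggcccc
Hnrnpd, chr5:99978939-99979038, minus strand: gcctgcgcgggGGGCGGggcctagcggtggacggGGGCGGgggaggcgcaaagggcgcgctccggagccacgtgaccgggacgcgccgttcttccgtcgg

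The window is 72% G and C in Hnrnpa3, with 3 GC boxes of which 2 overlap, and 80% in Hnrnpd, with 2 GC boxes. Of the genes that fell, Hnrnpl has 1 GC box and 1 CCAAT box in its window, while the letters of neither occur in that of Hnrnph3. Their windows are 69% (Hnrnpl) and 76% (Hnrnph3) G and C. Both of these windows lie within an exon that GENCODE annotates as UTR, and their sequence is not shown. The GC box was present in 23 of the 35 member genes (65.7%) and in 27.3% of the 27025 genes of the table. The CCAAT box was present in 14 (40%) and in 21.6% of all genes. The median share of G and C in the window was 66% for the members and 55% for all genes. Further motifs searched on both strands were an ETS motif (CCGGAAG), the TATA box (TATAAA) and the core of the cyclic AMP response element (TGACGT). They occurred in 8, 3 and 5 of the 35 member genes, against 5.22%, 6.57% and 4.72% of all genes, and in none of the 4 genes that were called. The genes of the table were not filtered by level, so these shares do not set splicing factors apart from other expressed genes. A gene with several promoters counted if any of them matched. A match of letters is a description and does not show that a factor binds.

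Among the hnRNP genes, 19 of 19 were tested, 2 rose, 2 fell and 15 were not called, with a median log2 fold change of -0.03, against -0.02 over all tested genes. Hnrnpd encodes AUF1, which binds AU-rich elements and speeds the decay of cytokine mRNAs. It had 487, 433 and 479.6 CPM in the KO libraries and 349, 407 and 381 CPM in the WT libraries. Every KO value lay above every WT value. The mean was 467 ± 29.5 CPM in KO and 379 ± 28.7 CPM in WT (SD, n = 3 each), a log2 fold change of 0.30 ± 0.08 (SE; limma adjusted p = 0.0243), or 1.23-fold. Its paralog Hnrnpdl had 225, 191 and 231 CPM in KO and 175, 235 and 201 CPM in WT. These values overlapped, and the log2 fold change of 0.09 had a 95% interval of -0.18 to 0.36. The call of Hnrnpd was lost without KO replicate 1 (adjusted p = 0.1004), KO replicate 3 (adjusted p = 0.0772) or WT replicate 3 (adjusted p = 0.0701) in limma, with log2 fold changes of 0.27, 0.28 and 0.31.

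Hnrnpa3 encodes an hnRNP of the A/B group that binds RNA through a pair of recognition motifs. It had 43.6, 41.8 and 49.0 CPM in the KO libraries and 25.6, 34.4 and 35.7 CPM in the WT libraries. The groups did not overlap, and WT replicate 1 was the lowest of all. The mean was 44.8 ± 3.78 CPM in KO and 31.9 ± 5.48 CPM in WT (SD, n = 3 each), a log2 fold change of 0.49 ± 0.13 (limma adjusted p = 0.0241). The gene lies on chromosome 2 (75659261 to 75669407, mm10), where the 856 tested genes had a median log2 fold change of 0.34 and 58.3% rose. On that chromosome 25.4% of the genes had a log2 fold change as high as that of Hnrnpa3 or higher. Srsf6, the other member there, had 0.12, and 23.1% of the genes of the chromosome had that value or a lower one. Without KO replicate 1 or KO replicate 3 the call of Hnrnpa3 was lost (limma adjusted p = 0.0738 and 0.0840).

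Hnrnph3, of the hnRNP H and F group that binds runs of G, had 2.87, 2.16 and 3.35 CPM in KO and 4.52, 10.9 and 5.41 CPM in WT. All KO values lay below all WT values, and WT replicate 2 was the highest library. These levels rest on 129 to 732 reads per library. The mean was 2.79 ± 0.598 CPM in KO and 6.93 ± 3.44 CPM in WT (SD, n = 3 each), a log2 fold change of -1.10 ± 0.29 (limma adjusted p = 0.0244). At so low a level the scale of log2(CPM + 0.5) understates the change. The other genes of the group were not called. Hnrnph1 had 166, 124 and 179 CPM in KO and 152, 242 and 177 CPM in WT, with an interval of -0.71 to 0.16, and the log2 fold changes of Hnrnph2 (0.09) and Hnrnpf (0.08) were small. The call of Hnrnph3 was lost without KO replicate 1 (adjusted p = 0.0771) or KO replicate 2 (adjusted p = 0.0865) in limma.

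Hnrnpl binds CA repeats and, with its paralog Hnrnpll, controls exons of the CD45 gene Ptprc. It had 371, 356 and 379.8 CPM in the KO libraries and 479.8, 438 and 410.01 CPM in the WT libraries. The groups did not overlap, and WT replicate 1 was the highest library. The mean was 369 ± 12.1 CPM in KO and 443 ± 35.1 CPM in WT (SD, n = 3 each), a log2 fold change of -0.26 ± 0.07 (limma adjusted p = 0.0307). Hnrnpll had 163 ± 7.91 CPM in KO and 161 ± 15.9 CPM in WT, and the interval of its difference was -0.17 to 0.22. The call of Hnrnpl was lost with TMM scaling (adjusted p = 0.0569), with median-ratio scaling (adjusted p = 0.0519) and in edgeR (adjusted p = 0.0583), and without KO replicate 1, 2 or 3 or WT replicate 2 (limma adjusted p = 0.0952, 0.106, 0.0590 and 0.0562).

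**Figure D2:**
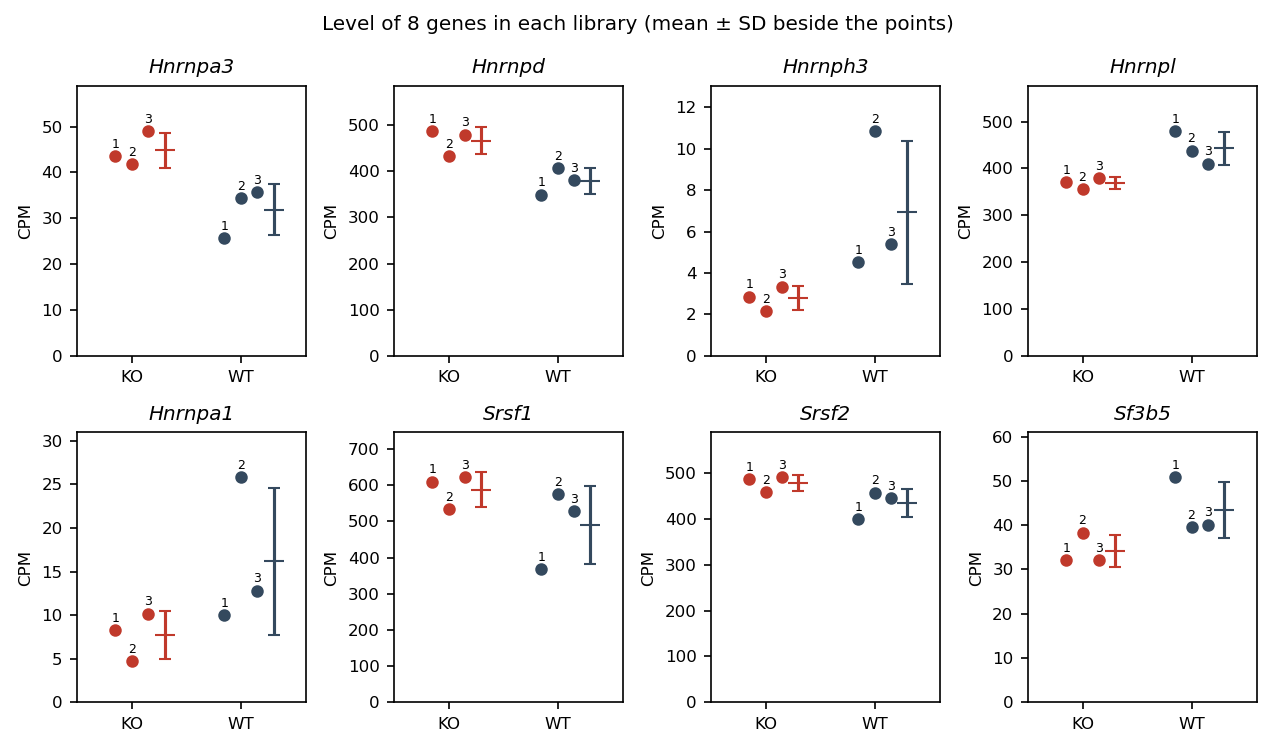
CPM of 8 splicing factor genes in each library, KO left of WT, with the replicate number above each point and the mean ± SD beside the points (n = 3 each). The KO and WT points of Hnrnpa3, Hnrnpd, Hnrnph3, Hnrnpl, Srsf2 and Sf3b5 do not overlap, and WT replicate 2 stands above the others for Hnrnpa1 and Hnrnph3.

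Hnrnpa1, which encodes an hnRNP known for silencing exons, differed widely between libraries and was not called. It had 8.27, 4.72 and 10.2 CPM in KO and 9.98, 25.8 and 12.8 CPM in WT. KO replicate 3 lay above WT replicate 1, so the groups overlapped, and WT replicate 2 was the highest library. The log2 fold change was -0.97 ± 0.37, with an interval of -1.81 to -0.12 (limma adjusted p = 0.0817). Without WT replicate 1 it was called (log2 fold change -1.25, limma adjusted p = 0.0292), and without WT replicate 2 the log2 fold change was -0.58 (limma adjusted p = 0.113). Of the stretches of 50 bases in its longest coding transcript, 46.4% also occur in transcripts of 19 genes at other sites, 18 of them pseudogenes. The like share was 28.2% for Hnrnpa3 (45 genes, 41 of them pseudogenes), 51.9% for Hnrnpf and 34.5% for Hnrnpk, and 0 for Hnrnph3. The sources used here do not say how reads with several matches were counted, so the levels of Hnrnpa1, Hnrnpa3, Hnrnpf and Hnrnpk are uncertain, as are those of Sf3b4 (49.3%) and Srsf3 (31.5%).

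The hnRNP genes with the most CPM, not divided by length, were not called in limma. Hnrnpu, a scaffold protein of the nucleus, had 1462, 1298 and 1560 CPM in KO and 1263, 1439 and 1329 CPM in WT. The groups overlapped, and the interval of the log2 difference was -0.11 to 0.31. Hnrnpa2b1, which acts in mRNA transport and splicing, had 1112, 895 and 1113 CPM in KO and 1051, 1368 and 1205 CPM in WT. These overlapped as well, with an interval of -0.50 to 0.07. Hnrnpk, which binds runs of C, had 924, 883 and 910.3 CPM in KO and 871, 1015 and 957 CPM in WT, with an interval of -0.23 to 0.11. The other 6 hnRNP genes, Hnrnpa0, Hnrnpc, Hnrnpm, Hnrnpr, Hnrnpul1 and Hnrnpul2, had log2 fold changes between -0.07 (Hnrnpul2) and 0.06 (Hnrnpr), whose sign depended on the scaling for some. Together the hnRNP genes took 7225 ± 488 CPM in KO and 7334 ± 522 CPM in WT (SD, n = 3 each).

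No SR protein gene was called. Of 11, 10 were tested and 0 passed in limma, with 0 at an unadjusted p under 0.05. EdgeR and DESeq2 called 0 as well, with 2 and 3 at an unadjusted p under 0.05. Of all 10614 tested genes, 4437 were under 0.05 before adjustment in limma, 4553 in edgeR and 4569 in DESeq2. The median log2 fold change was 0.06, with 5 members above and 5 below 0. Srsf1, the founding member of the family, had 609.9, 533 and 622 CPM in KO and 368, 576 and 528 CPM in WT. WT replicate 1 was far below the other 5 libraries, and WT replicate 2 lay within the KO range. The log2 fold change was 0.28 ± 0.16, with an interval of -0.08 to 0.65 (limma adjusted p = 0.214). Without WT replicate 1 it was 0.090, and without WT replicate 2 it was 0.41. Srsf2, a mark of nuclear speckles also known as SC35, had 485, 457.4 and 489.8 CPM in KO and 399, 456.7 and 445 CPM in WT. The groups just failed to touch, at KO replicate 2 and WT replicate 2, and the log2 fold change was 0.14 ± 0.07 (limma adjusted p = 0.177). Srsf3, which also serves in mRNA export, had 405, 369 and 393 CPM in KO and 306, 391.6 and 387 CPM in WT, with an interval of -0.12 to 0.35.

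The lowest estimates among the SR protein genes were those of Srsf4 and Srsf5. Srsf4 had 17.8, 14.9 and 20.8 CPM in KO and 22.3, 27.0 and 19.1 CPM in WT. Its groups overlapped, with a log2 fold change of -0.34 and an interval of -0.70 to 0.01. On the opposite strand, Gm12992 covers 43.0% of its exonic bases. Whether the counting used strand is not known, so reads from the shared bases could belong to either gene. The same limit holds for Hnrnpf, Srsf2 and Sf3a2, with 26.5%, 25.3% and 16.1% of exonic bases covered on the opposite strand. On the same strand, March2 covers 14.7% of the exonic bases of Hnrnpm, and AC129217.1 covers 5.06% of those of Hnrnpul2. There, strand alone would not separate the reads. Srsf5 had 223, 170.1 and 237 CPM in KO and 217, 294 and 235 CPM in WT, with an interval of -0.59 to 0.10. Srsf7, an export adaptor close to Srsf3, and Srsf9, close to Srsf1, had log2 fold changes of -0.08 and -0.003. Srsf6, Srsf10 and Srsf11 had 0.12, 0.15 and -0.14, and for 7 of the 10 tested SR protein genes the interval lay within 1.5-fold. Srsf12 had 0 to 2 reads in each library, at or under the limit of 3 reads that a count of 0 allows, and was not tested.

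No SF3 gene was called. Of 9 tested, 0 passed in limma, with 2 at an unadjusted p under 0.05, and edgeR and DESeq2 called 0, with 2 and 4 at an unadjusted p under 0.05. Over all 10614 tested genes, 4437 had an unadjusted p under 0.05 in limma, 4553 in edgeR and 4569 in DESeq2. The median log2 fold change was 0.13 over the 3 SF3A genes and 0.003 over the 6 SF3B genes. Sf3a1 had 212, 219 and 212 CPM in KO and 203, 185 and 185 CPM in WT, a log2 fold change of 0.17 ± 0.06 (limma adjusted p = 0.0785) with all KO values above all WT values. Sf3a2 had 100.1, 109 and 103 CPM in KO and 109, 86.1 and 90.1 CPM in WT, and Sf3a3 had 120.04, 115 and 120.3 CPM in KO and 117, 111 and 109 CPM in WT. Both overlapped between groups, since WT replicate 1 was the highest WT library for each. Without WT replicate 1, Sf3a1 (log2 fold change 0.21, adjusted p = 0.0150) and Sf3a2 (0.23, adjusted p = 0.0205) were called higher in limma. Without WT replicate 2 the log2 fold change of Sf3a2 was 0.063, and it was not called.

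Sf3b1, the subunit that clamps the branch point helix, had 496, 469.6 and 532 CPM in KO and 437, 599 and 508 CPM in WT. The WT libraries spanned the whole KO range, and the interval of the log2 difference was -0.30 to 0.23. Sf3b3, a propeller protein of the core, had 531, 593 and 577 CPM in KO and 536, 502 and 499 CPM in WT, a log2 fold change of 0.14 ± 0.07 (limma adjusted p = 0.15). Sf3b2 had 414, 388 and 419.7 CPM in KO and 431, 395 and 389 CPM in WT, and its log2 fold change was 0.01. Sf3b4, which contacts RNA upstream of the branch point, had 138 ± 11.3 CPM in KO and 122 ± 8.40 CPM in WT, and Sf3b6 had 135 ± 7.16 CPM in KO and 135 ± 1.65 CPM in WT (SD, n = 3 each). Sf3b5, a small core subunit, had 32.0, 38.3 and 32.1 CPM in KO and 50.8, 39.5 and 40.1 CPM in WT. Its groups did not overlap and its log2 fold change was -0.34 ± 0.12 (limma adjusted p = 0.0643). Without WT replicate 2 it was called lower (log2 fold change -0.40, limma adjusted p = 0.0355), and without WT replicate 1 the log2 fold change was -0.22, and it was not called.

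The hnRNP and SR protein genes deviated together among the libraries of a group. KO replicate 2 was below the KO mean for 19 of 19 hnRNP and 9 of 10 tested SR protein genes, and KO replicate 3 above it for 18 and 10. Over all tested genes, 63.5% were above the group mean in KO replicate 3 and 67.0% in WT replicate 2, against 46.8% in KO replicate 2 and 47.2% in WT replicate 1. In WT, replicate 1 was below the WT mean for 16 of 19 hnRNP and 9 of 10 SR protein genes, and replicate 2 above it for 16 and 9. The SF3 genes did not share this: 6 of 9 were above the mean in KO replicate 2, 8 of 9 above it in WT replicate 1 and 8 of 9 below it in WT replicate 2. The median deviation of the SR protein genes, in log2 CPM, was 0.05, -0.14 and 0.08 in KO replicates 1, 2 and 3 and -0.20, 0.24 and 0.01 in WT replicates 1, 2 and 3, against -0.02, -0.01 and 0.03 in KO and -0.01, 0.05 and -0.03 in WT for all tested genes. Reads of Rn45s, the precursor of ribosomal RNA, made up 1.40%, 0.542% and 0.635% of KO replicates 1, 2 and 3 and 2.75%, 0.381% and 2.43% of WT replicates 1, 2 and 3. The SR protein genes summed to 2823, 2499 and 2879 CPM in KO replicates 1, 2 and 3 and to 2197, 2946 and 2645 CPM in WT replicates 1, 2 and 3. The longest coding transcripts had a median G and C content of 43.7% for the SR protein genes, 45.2% for the hnRNP genes, 49.8% for the SF3 genes and 49.8% for all tested genes. When a trend with length and G and C content was removed from each library, 2 SR protein genes (Srsf1 and Srsf2) and 4 SF3 genes (Sf3a1, Sf3a2, Sf3a3 and Sf3b4) were called higher, with 2989 calls higher and 2169 lower over the whole table. Rescaling without Rn45s left 2 hnRNP genes called higher and 2 lower in limma, with 0 SR protein and 0 SF3 genes called. The part of Rn45s in the deviations among libraries was not tested.

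**Figure D3:**
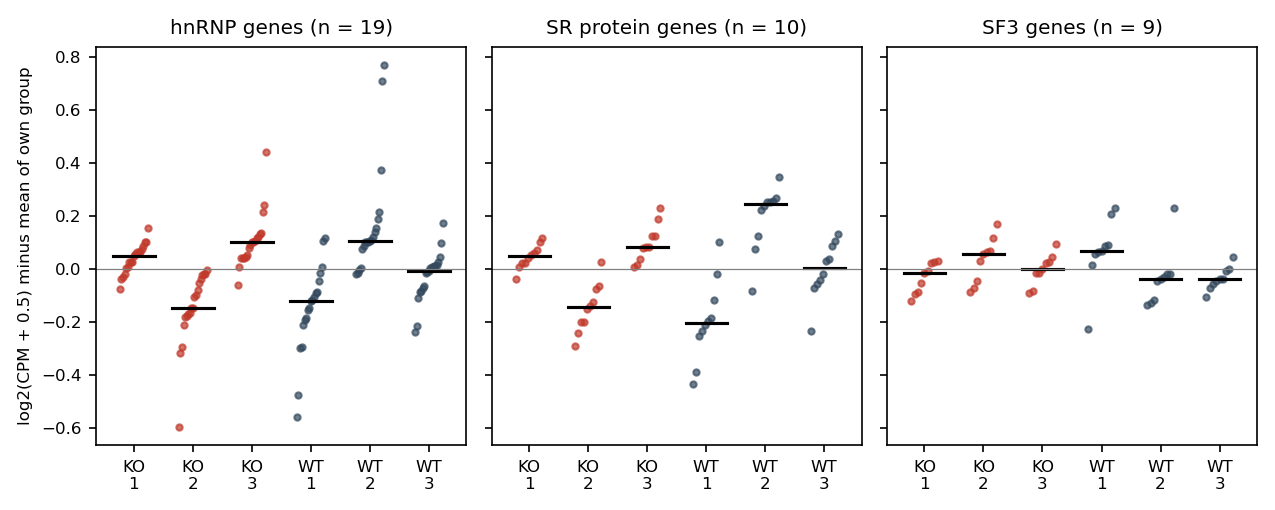
Deviation of each tested gene from the mean of its own group, in log2(CPM + 0.5), for the hnRNP, SR protein and SF3 genes in each KO and WT library. Points are genes, the black line is their median, and WT replicates 1 and 2 lie on opposite sides of 0 for the SR protein genes (medians -0.20 and 0.24).

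Levels of different genes are set in order here per length. Divided by the median length of its coding transcripts, Hnrnpa2b1 was the highest at 632 ± 76.3 CPM per kb in KO and 734 ± 96.3 CPM per kb in WT, followed by Hnrnpk (339.9 ± 7.75 in KO and 356 ± 27.2 in WT) and Srsf2 (296 ± 10.9 in KO and 269 ± 18.8 in WT) (SD, n = 3 each). Below these, Hnrnpd and Hnrnpf stood at 254 ± 16.1 and 232 ± 6.43 CPM per kb in KO and at 207 ± 15.6 and 220.5 ± 15.3 in WT, and their WT values overlapped. The SF3 genes lay between 126 (Sf3b2) and 10.1 CPM per kb (Sf3b5) over all libraries. The lowest tested members were Sf3b5, Srsf4, Hnrnpa1 and Hnrnph3, the last at 2.24 CPM per kb over all libraries. How the counting treated strand and reads with several matches is not known. The places of Hnrnpk, Srsf2, Hnrnpf, Srsf4 and Hnrnpa1 in this order are therefore uncertain.

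**Figure D4:**
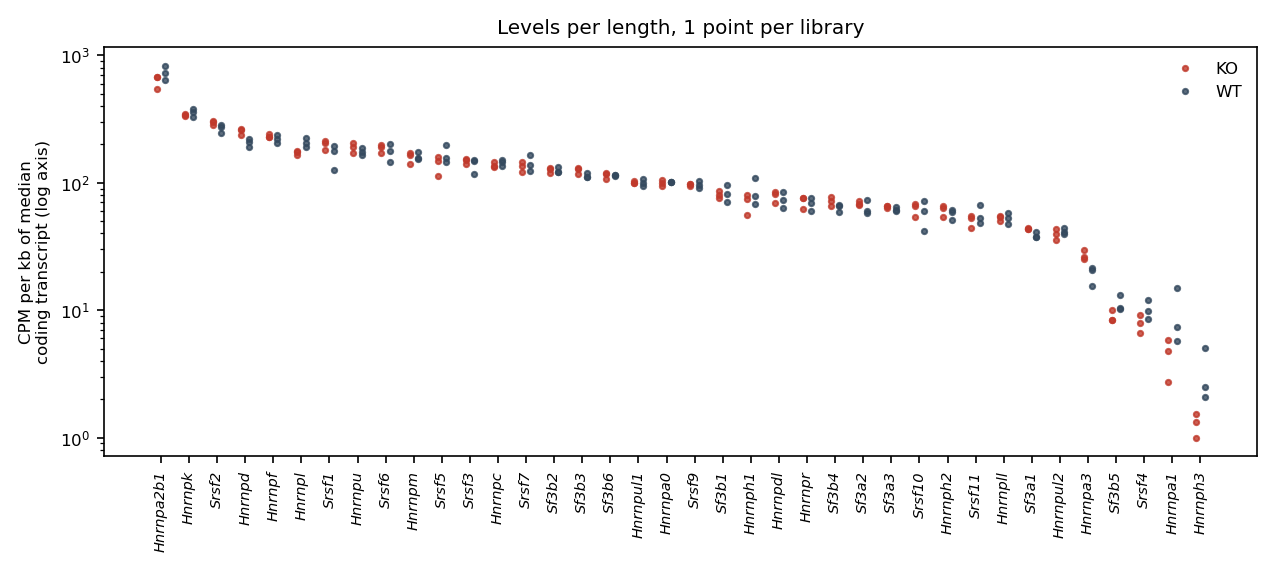
CPM per kb of the median coding transcript for the 38 tested genes in each KO and WT library, on a log axis, in order of the mean over all 6 libraries. Hnrnpa2b1 is highest, and Hnrnpa3, Sf3b5, Srsf4, Hnrnpa1 and Hnrnph3 form the low end. The places of Hnrnpa3, Srsf4 and Hnrnpa1 are uncertain, since the counting of shared reads is not known.

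Other genes of the splicing machinery were read from lists, whose counts in limma stand against 30.4% called over all tested genes, 13.5% higher and 16.9% lower. Of 22 tested SR-related proteins, such as Srrm2 and Son, 0 were called in limma, 1 having an unadjusted p under 0.05, with 0 called in edgeR and 1 in DESeq2, and the median log2 fold change was -0.002. Srrm2 had 610.1 ± 88.0 CPM in KO and 668 ± 62.1 CPM in WT, and Son 412 ± 34.1 CPM in KO and 431 ± 27.0 CPM in WT (SD, n = 3 each). Of 9 tested kinases, phosphatases and importers that act on SR proteins, 2 fell and 0 rose, with a median of -0.21. The kinase gene Clk3 fell to 51.8 ± 2.96 CPM in KO, against 68.5 ± 5.98 CPM in WT (log2 fold change -0.40, limma adjusted p = 0.00953), and the phosphatase gene Ppp1ca to 243 ± 20.4 CPM in KO, against 292 ± 21.8 CPM in WT (-0.27, limma adjusted p = 0.0483). The call of Ppp1ca was lost in edgeR (adjusted p = 0.109) and DESeq2 (adjusted p = 0.0732). DESeq2 called Clk1 lower (log2 fold change -0.53, adjusted p = 0.0235). It was not called in limma (-0.54, adjusted p = 0.117) or edgeR (adjusted p = 0.0862). Clk2, a relative of Clk3, was listed at 0 in every library, as were Ptbp1, Cirbp and Snrpn. How the counting treated reads with several matches and strand is not known, so a listed 0 does not show that a gene was silent.

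Of 19 tested genes for hnRNP and other RNA-binding proteins with symbols other than Hnrnp, 2 rose and 0 fell, with a median of 0.03. Rbmx, on the X chromosome, rose to 78.0 ± 1.36 CPM in KO, against 57.6 ± 5.54 CPM in WT (log2 fold change 0.44, limma adjusted p = 0.00490). Raly rose to 273 ± 6.85 CPM in KO, against 222 ± 16.1 CPM in WT (0.30, limma adjusted p = 0.0131). Of 16 genes of the U2 snRNP and of branch site recognition whose symbols start otherwise than Sf3a or Sf3b, 2 rose and 1 fell. Their median log2 fold change was 0.06. Rbm17 rose to 188 ± 8.43 CPM in KO, against 133 ± 1.09 CPM in WT (0.50, limma adjusted p = 0.000650), and Snrpb2, a U2 snRNP protein, to 139 ± 6.11 CPM in KO, against 92.7 ± 11.5 CPM in WT (0.59, limma adjusted p = 0.00301). Puf60, which helps bind the 3' splice site, fell to 79.0 ± 2.503 CPM in KO, against 93.3 ± 6.47 CPM in WT (-0.24, limma adjusted p = 0.0370), a call lost in edgeR (adjusted p = 0.0694).

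Of 10 tested Sm and U1 snRNP genes, 0 rose and 1 fell, Snrpg, with 99.1 ± 6.87 CPM in KO and 128 ± 15.8 CPM in WT (log2 fold change -0.36, limma adjusted p = 0.0265), and the median was 0.02. Of 21 genes of the U5 snRNP, the tri-snRNP and the Prp19 complex, 5 rose and 0 fell, with a median of 0.07. The helicase gene Snrnp200 rose to 514 ± 40.2 CPM in KO, against 334 ± 14.8 CPM in WT (0.62, limma adjusted p = 0.000737). Prpf6 rose to 156 ± 0.393 CPM in KO, against 119.6 ± 4.04 CPM in WT (0.38, limma adjusted p = 0.00195), and Crnkl1 to 99.7 ± 5.43 CPM in KO, against 72.7 ± 4.74 CPM in WT (0.45, limma adjusted p = 0.00290). Over all 6 lists 9 genes rose, and 7 of them lie on chromosome 2, Raly, Snrpb2 and Snrnp200 among them. Rbmx and Prpf31 lie elsewhere. Of the 4 that fell 0 lie there, and 3 genes of the lists on chromosome 2, Rbm39, Ppig and Snrpb, were not called in limma or edgeR, while DESeq2 called Ppig (adjusted p = 0.0233) and Snrpb (adjusted p = 0.0240) higher.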

How the data were processed

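Sequencing of 3 KO and 3 WT libraries was followed, per the submitters' processing notes, by Trim Galore, STAR 2.6.0a, FastQC, SAMtools and Picard, against mm10. Column names record coordinate sorting and removal of duplicates, per the file headers. No source used here names the counter, its gene models or its strand setting. The authors deposited CPM for 24848 genes. Low values were whole multiples of 1 read for 100% of values (tolerance 0.01 of a read), and whole reads were recovered from them. With these reads, 3359 genes were called by the edgeR quasi-likelihood test and 3758 by DESeq2.

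The filter kept genes that reached 1 CPM in 3 or more libraries. They were tested with limma 3.58.1 in R 4.3.3 on log2(CPM + 0.5) with a mean-variance trend, KO against WT, without covariates, and called at a Benjamini-Hochberg adjusted p under 0.05. Fold changes on this scale understate the change of genes at low levels. Limits for counts cover counting error only. Alternatives used edgeR 4.0.16 and DESeq2 1.42.0, other pseudocounts, filters and scalings, a replicate block and runs without each library. Removing a trend with length and G and C content, rescaling without Rn45s and a run without chromosome 2 were chosen after the data were seen.

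Annotation came from GENCODE M21 (mm10), which 24305 genes matched by symbol or older symbol, and promoters from RefSeq (GRCm38.p6). Members, lists and tests were chosen with earlier results of these data known. Values in every library are given for called members and for the 3 most abundant members of each family that were not called. From each list the text names up to 3 called genes, taken by adjusted p, and where none was called the 2 of highest level. Other members shown in full, and Clk1, Clk2, Ptbp1, Cirbp, Snrpn, Prpf31, Rbm39, Ppig and Snrpb, were named after their values were seen. RNA editing was not analysed here.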

Additional observations from a re-analysis of the deposited data

How the results depend on the processing

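The direction of Hnrnpa3, Hnrnpd, Hnrnph3 and Hnrnpl held under every alternative run, while their calls did not. Of the 2 hnRNP genes that rose, 1 was called with quantile normalization and 1 without chromosome 2 genes, which removes Hnrnpa3. Of the 2 that fell, 1 was called at a minimum of 5 CPM, which removes Hnrnph3, 1 with TMM scaling, 1 with median-ratio scaling and 1 in edgeR. Hnrnpd missed the threshold with quantile normalization (0.23, adjusted p = 0.0567). Leaving out each library gave 0 to 2 hnRNP genes higher and 0 to 3 lower, 0 to 2 SF3 genes higher and 0 to 1 lower, and no SR protein gene in limma. Over all tested genes called, 957 to 1662 were higher and 1016 to 2099 lower without 1 library, and 880 were higher without chromosome 2 genes. With a trend of length and G and C content taken out, a choice made after the data were seen, 2989 of all genes, 2 SR protein and 4 SF3 genes were called higher, and Hnrnpa1 lower (-0.93, adjusted p = 0.0345). The causes were not tested. Same-numbered libraries gave no sign of pairing: their deviations correlated at -0.25, -0.64 and -0.17 across genes. KO replicates 1, 2 and 3 correlated best with WT replicates 3, 1 and 2 (0.29, 0.58 and 0.61). Deviations within a group cancel out, so these correlations depend on each other and do not settle whether samples were paired. A replicate block called 891 genes higher and 1118 lower, with 1 hnRNP gene higher and 1 lower, the calls of Hnrnpd (adjusted p = 0.0836) and Hnrnpl (adjusted p = 0.0984) being lost, and 0 SR protein and 0 SF3 genes in limma. Signs near 0 turned for uncalled genes. Sf3b6 had 0.0239 with TMM, 0.0249 with median-ratio scaling, 0.0254 in edgeR, 0.0267 in DESeq2 and 0.051 with the trend removed. Srsf9 had 0.0235, 0.0245, 0.0198, 0.0213 and 0.12 under the same 5 settings. Trend removal gave 0.047 for Hnrnpa0 and 0.0036 for Hnrnpm. Quantile normalization gave -0.053 for Hnrnpll, -0.041 for Hnrnpr, -0.058 for Hnrnpul1 and -0.067 for Sf3b2, and rescaling without Rn45s gave -0.0067 for Sf3b2. Without 1 library the log2 fold change ranged from -0.070 to 0.0080 for Hnrnpa0, -0.015 to 0.20 for Hnrnpdl, -0.049 to 0.094 for Hnrnpll, -0.092 to 0.054 for Hnrnpm, -0.032 to 0.15 for Hnrnpr, -0.026 to 0.070 for Hnrnpul1 and -0.14 to 0.0021 for Hnrnpul2. It ranged from -0.15 to 0.082 for Sf3b1, -0.020 to 0.054 for Sf3b2 and -0.031 to 0.042 for Sf3b6. For the SR protein genes it ranged from -0.0031 to 0.18 for Srsf3, -0.011 to 0.23 for Srsf6, -0.17 to 0.043 for Srsf7, -0.045 to 0.049 for Srsf9 and -0.069 to 0.32 for Srsf10. Depth limits Hnrnph3, with 129 to 732 reads per library, and Srsf12.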
